A study of Mus musculus with 2 samples.

Results

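The creatine kinases and the enzymes that buffer the adenylate pool (ATP, ADP and AMP) were examined in denervated mouse skeletal muscle. The set comprises 10 genes listed by name, chosen with earlier results of these data known. It holds the creatine kinases Ckm, Ckb and Ckmt2, the adenylate kinase Ak1 and the AMP deaminases Ampd1, Ampd2 and Ampd3. The others are the adenylosuccinate synthase gene Adssl1, and Prkaa2 and Prkag3, which encode subunits of the AMP-activated protein kinase (AMPK). All 10 were found through the gene name or the RefSeq transcript printed for each probe on the array, which gave 12 probes of 41174. All 10 genes were well above background in both pools by at least 1 probe, and they were 10 of the 15659 genes measured in both pools. The study compared gastrocnemius muscle of male C57BL/6 wild-type mice 14 days after denervation with gastrocnemius of control mice. Denervation was at 7 weeks of age and sampling at 9 weeks. Controls are labelled Sham_Control in one field and Control in the others, and whether they had surgery is not stated. Each group is a single pool of RNA from 6 mice on a single array, so no difference between pools was tested or checked in replicates, and none holds a measure of the spread between mice. Both arrays lie on 1 slide, where array position and group cannot be told apart.

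Creatine kinases move a phosphate group between ATP and creatine, so that phosphocreatine can restore ATP within a contraction. Ckm encodes the cytosolic muscle enzyme, Ckmt2 the mitochondrial enzyme of sarcomeric muscle, and Ckb the cytosolic enzyme of brain, smooth muscle and immature muscle. When ATP use outpaces supply, adenylate kinase recovers ATP from pairs of ADP molecules and leaves AMP. AMP deaminase then turns AMP into IMP, and adenylosuccinate synthase and adenylosuccinate lyase return IMP to AMP; together these steps form the purine nucleotide cycle of muscle. AMPK senses AMP and ADP and favours fuel oxidation when they accumulate.

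The highest and the lowest differences of the set both lay among the AMP deaminases. Ampd3, the isoform of red cells and other non-muscle tissues, was 15.5-fold higher in the denervated pool, and Ampd1, the isoform of mature muscle, was 4.31-fold lower. The mitochondrial creatine kinase Ckmt2 was 4.30-fold lower and the adenylate kinase Ak1 3.64-fold lower, while the cytosolic Ckm was 1.65-fold lower. Of the 10 genes, 4 passed 2-fold downwards, against 8.55% of all 15659 genes measured, and 1 passed it upwards, against 6.94%. Because the members were chosen with earlier results of these data known, these counts are description and no test. Differences are given as log2 of the denervated over the control signal, after each array was scaled so that its 75th percentile signal is 100. Values after ± combine the spot errors that the scanner software gave on the 2 arrays, and so cover technical error only.

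The median log2 difference of the 10 genes was -0.78, against -0.11 for all genes measured, and 9 of the 10 genes lay below 0, as did 57.1% of all genes. Scaling to the spike-in controls, RNAs of known amount added to each sample, in place of the 75th percentile moved every gene up by 0.40. The log2 shift between arrays was 0.03 by the median of 9 spike-in probes and 0.43 by the 75th percentile. Single spike-in probes ran from -0.005 to 0.68, a range that includes both. With spike-in scaling the median of the set became -0.38 and that of all genes 0.29. Of the 10 genes, 7 then lay below 0 and 3 were at least 2-fold lower. Over all genes that scaling turned 1339 lower and 1086 higher into 650 lower and 2261 higher. Ckb and Ampd2 changed direction with that scaling, and the other 8 genes kept theirs. In whole muscle, fewer cells of a type and less RNA per cell cannot be told apart.

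**Figure D1:**
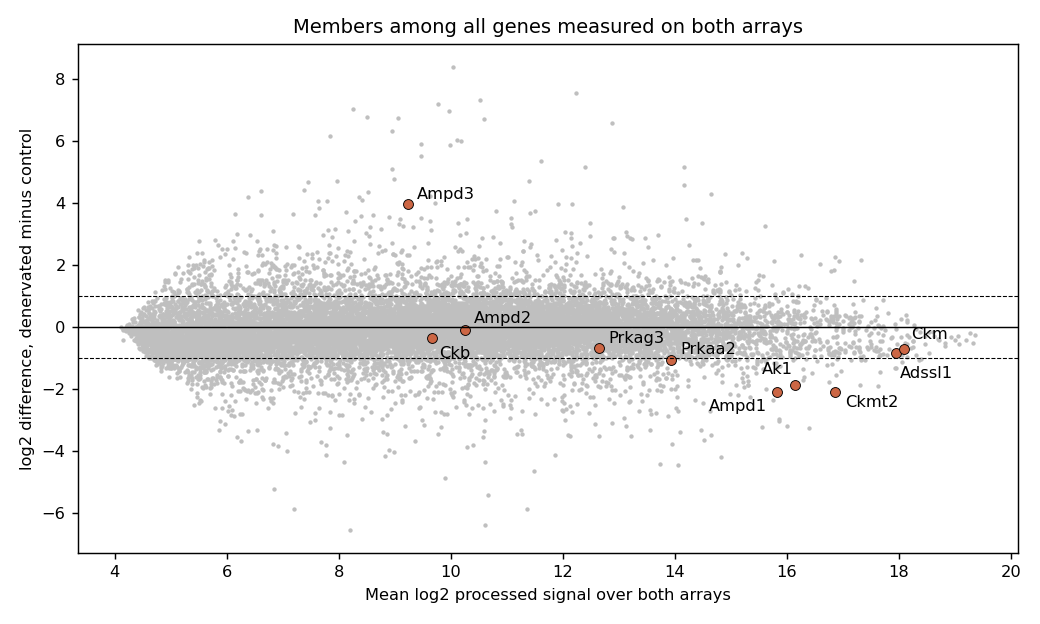
Log2 difference (denervated minus control, y axis) of each of the 15659 genes measured in both pools against its mean log2 processed signal (x axis), with the 10 genes of the set in orange and dashed lines at 2-fold. Ampd3 stands at 3.96, Ampd1, Ckmt2 and Ak1 between -2.11 and -1.86, and the other 6 genes between -1.05 and -0.09.

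The 3 creatine kinases differed in size. Ckmt2 had a scaled signal of 26803 in control and 6230 in denervated muscle, a log2 difference of -2.11 ± 0.20. Its probe lies on chromosome 13 at 92327876 to 92330024 of the mm8 assembly, on transcript NM_198415. Ckm, the cytosolic partner in mature fibres, was lower by a smaller amount, -0.72 ± 0.20.

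Ckm had a scaled signal of 39025 in control and 23676 in denervated muscle. Its probe lies on chromosome 7 at 18575395 to 18578002 (mm8, NM_007710). The difference of Ckmt2 minus that of Ckm was -1.38 ± 0.29 on the log2 scale, and a scaling common to all probes of an array cancels from it. Both spots were read in the scanner's low-gain pass on both arrays and neither had a saturated pixel.

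Ckb was the only creatine kinase of the set with 2 probes, and these disagreed. Ckm, Ckmt2, Ak1 and Ampd1 were each read by 1 probe, so no second probe could be set beside their values. The probe brighter over both arrays (chromosome 12, 112117293 to 112117352, mm8, NM_021273) read 101 in control and 78.7 in denervated muscle, a difference of -0.36 ± 0.20. The other probe (chromosome 12, 112118056 to 112118702) read 114 and 53.0, a difference of -1.10 ± 0.20. The probes differed by 0.75 ± 0.29, and a gap of that size or larger was found for 14.0% of the 4104 genes with 2 measured probes. With spike-in scaling the brighter probe stood at 0.04 and the other at -0.70, so the direction of Ckb depended on the probe and on the scaling.

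The sequences before the start sites of these creatine kinases and of Ampd3 are shown. Ckmt2 was lower than Ckm and than both Ckb probes, and Ckmt2 minus Ckb was -1.75 ± 0.29 by the brighter Ckb probe. Ampd3 was the only gene of the set above 0 by the main scaling. Ckm and Ckb were not clearly apart: Ckm minus Ckb was -0.36 ± 0.29, and the other Ckb probe, at -1.10, lay below Ckm. Each is the 250 bases before the start site in RefSeq's GRCm38.p6 annotation (for Ampd3 the first of 3 annotated starts), 5′ to 3′ on the gene's strand: Ckm at chr7:19410844-19411093 (+), Ckmt2 at chr13:91876886-91877135 (-), Ckb at chr12:111672339-111672588 (-) and Ampd3 at chr7:110768372-110768621 (+). Capitals mark matches, on either strand, to the E-box CANNTG (of which CAGCTG is the form often bound in muscle genes) and the MEF2 site.
Ckm: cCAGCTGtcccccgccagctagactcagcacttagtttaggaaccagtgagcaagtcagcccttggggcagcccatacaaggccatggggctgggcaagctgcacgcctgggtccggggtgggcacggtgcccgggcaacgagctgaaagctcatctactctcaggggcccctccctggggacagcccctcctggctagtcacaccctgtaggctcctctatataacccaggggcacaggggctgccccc
Ckmt2: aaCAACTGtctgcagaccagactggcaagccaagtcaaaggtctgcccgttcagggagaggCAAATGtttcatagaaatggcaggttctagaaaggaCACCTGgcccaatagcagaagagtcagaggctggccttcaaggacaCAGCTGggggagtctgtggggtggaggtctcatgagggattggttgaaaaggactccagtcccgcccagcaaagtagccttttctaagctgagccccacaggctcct
Ckb: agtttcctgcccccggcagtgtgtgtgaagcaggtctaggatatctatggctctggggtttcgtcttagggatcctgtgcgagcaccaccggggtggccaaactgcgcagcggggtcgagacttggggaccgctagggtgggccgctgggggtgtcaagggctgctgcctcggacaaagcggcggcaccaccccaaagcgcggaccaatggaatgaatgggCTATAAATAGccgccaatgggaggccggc
Ampd3: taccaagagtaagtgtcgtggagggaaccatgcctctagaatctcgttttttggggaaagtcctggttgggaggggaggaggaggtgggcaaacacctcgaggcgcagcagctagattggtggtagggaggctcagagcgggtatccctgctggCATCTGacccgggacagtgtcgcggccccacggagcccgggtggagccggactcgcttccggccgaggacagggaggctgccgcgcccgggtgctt

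Ckmt2 held 4 E-boxes in this window, 1 of them CAGCTG, and Ckm held 1, also CAGCTG. Ckb held no E-box and 1 match to the MEF2 site, 29 to 20 bases before its start. That match contains the letters TATAAA of a TATA box, so the letters alone cannot tell a MEF2 site from a TATA box. Ampd3 held 1 E-box in the window shown, 3 in the window of the second start and none in that of the third start. Of all 32851 windows of this length, 66.2% held CANNTG, 13% CAGCTG and 0.508% the MEF2 site. RefSeq windows were matched for 9 of the 10 genes, all but Ampd1, and counted 15 because some genes have several starts. The FoxO core GTAAACA was in none of the 15 windows (3.17% of all windows held it), and the ERR half-site AAGGTCA was in 1, before the third start of Ak1 (4.08% of all windows). CAGCTG lay in 5 of the 15 windows, against 13% of all windows, and these belonged to 4 genes, Ckm, Ckmt2, Ak1 and Prkag3. CANNTG lay in 12 of the 15 windows, against 66.2% of all windows. A match describes these letters only, and no binding was measured.

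**Figure D2:**
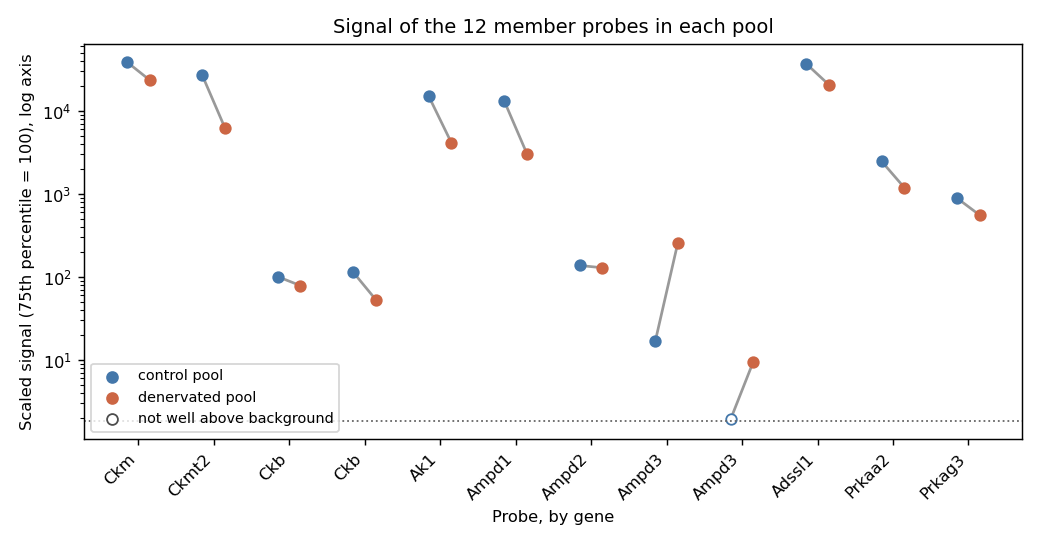
Scaled signal (log axis, 75th percentile of each array set to 100) of the 12 probes in the control pool and the denervated pool, with an open circle where a probe was not well above background and a dotted line at the lowest signal well above background on the control array. Heights of different probes are not comparable, so only the slope within a probe is read: both Ampd3 probes slope up and the other 10 slope down.

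Ak1 encodes the cytosolic adenylate kinase of muscle. Its scaled signal was 15022 in control and 4130 in denervated muscle, a difference of -1.86 ± 0.20 (chromosome 2, 32456816 to 32456876, mm8, NM_021515). The difference of Ak1 minus that of Ckm was -1.14 ± 0.29, larger than the technical error, whereas Ak1 minus Ampd1 was 0.25 ± 0.29, within it. Ak1 ranked 312 from the lowest among the 15659 genes. With spike-in scaling it stood at -1.47.

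The AMP deaminases went in different directions. Ampd1 had a scaled signal of 13184 in control and 3056 in denervated muscle (-2.11 ± 0.20, chromosome 3, 103227787 to 103227846, mm8, NM_001033303). Ampd3 had 16.7 in control and 259 in denervated muscle (3.96 ± 0.21, chromosome 7, 110602643 to 110602702, mm8, NM_009667). The separation between the isoforms was 6.07 ± 0.29 on the log2 scale, and Ampd3 ranked 40 from the highest among all genes while Ampd1 ranked 219 from the lowest.

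A second Ampd3 probe read the same direction with a smaller ratio. Its listed position spans 4894 bases (chromosome 7, 110586949 to 110591842, mm8). Its scaled signal was 1.94 in the control pool, where it was not well above background, and 9.56 in the denervated pool. Set against its own control signal, which lay above the lowest detected signal of 1.84 on that array, Ampd3 was 4.92-fold higher by this probe. That control signal had a spot error of 0.38 in log2, so the ratio is no firm lower bound. The control signal of the brighter probe was low too, and with normexp background correction its difference was 3.40 in place of 3.96.

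Ampd2, the deaminase of liver and most other non-muscle tissues, read 137 in control and 129 in denervated muscle, a difference of -0.09 ± 0.20 (chromosome 3, 108202168 to 108202227, mm8, NM_028779). That difference lay within its technical error, and with spike-in scaling it was 0.31. Ampd2 stood 2.02 ± 0.29 above Ampd1 and Ampd3 stood 4.05 ± 0.29 above Ampd2.

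Adssl1, the muscle adenylosuccinate synthase that starts the return of IMP to AMP, read 37133 in control and 20731 in denervated muscle. The difference was -0.84 ± 0.20, or 1.79-fold lower (chromosome 12, 113089052 to 113089111, mm8, NM_007421). It was therefore not past 2-fold, and Ampd1, the deaminase of the same cycle, minus Adssl1 was -1.27 ± 0.29. Its probe is, with that of Ckm, among the brightest of the set, and for both the quantile scaling gave smaller differences, -0.42 for Adssl1 and -0.29 for Ckm.

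Both AMPK subunit genes were lower in the denervated pool. Prkaa2 encodes the catalytic alpha2 subunit abundant in muscle, and read 2467 in control and 1193 in denervated muscle, a difference of -1.05 ± 0.20 (chromosome 4, 104533035 to 104533094, mm8, NM_178143). It lay just past 2-fold, and the median, quantile, loess, spike-in and unscaled settings put it between -0.99 and -0.62, inside 2-fold. Its control spot was read in the low-gain pass and its denervated spot in the high-gain pass. Prkag3, the gamma3 regulatory subunit of fast glycolytic fibres, read 889 and 555, a difference of -0.68 ± 0.20 (chromosome 1, 74674013 to 74674402, mm8, NM_153744). Prkaa2 minus Prkag3 was -0.37 ± 0.29, little more than the technical error of that gap.

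Ordered by difference, the set ran Ampd1, Ckmt2, Ak1, Prkaa2, Adssl1, Ckm, Prkag3, Ckb, Ampd2 and Ampd3. Ampd1, Ckmt2 and Ak1 lay within the technical error of one another. Prkaa2, Adssl1, Ckm and Prkag3 ran from -1.05 to -0.68. Among the 332 genes with a mean signal of 65536 or more, 8.73% passed 2-fold downwards and 3.92% upwards. Ckm, Ckmt2, Ak1 and Adssl1 belong to that class, and of these 4 the genes past 2-fold were Ckmt2 and Ak1, both lower.

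**Figure D3:**
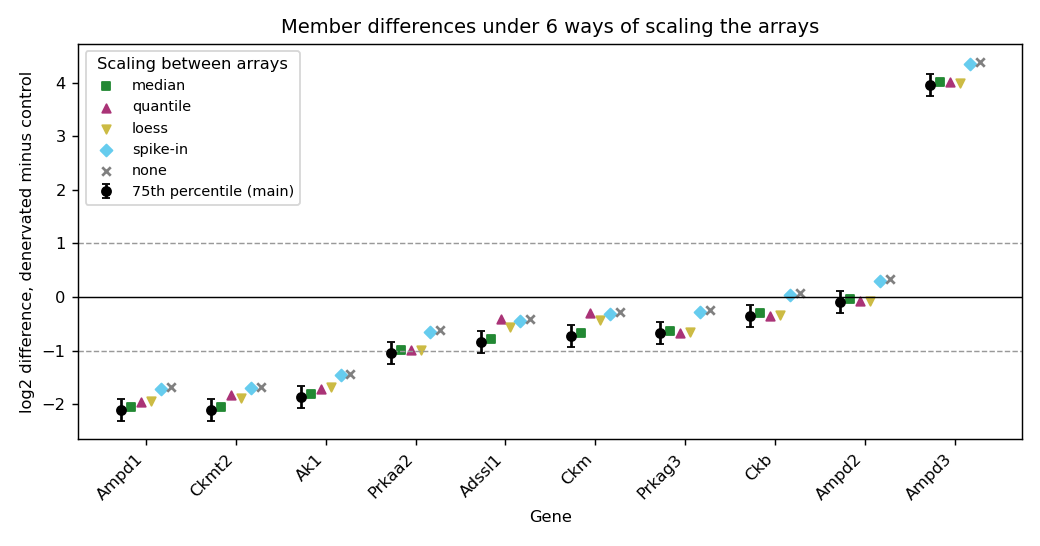
Log2 difference of each of the 10 genes (denervated minus control) under 6 ways of scaling the arrays; bars on the main value are the technical error, and dashed lines mark 2-fold. Ampd1, Ckmt2 and Ak1 stay below -1 and Ampd3 above 1 under all 6, Prkaa2 passes -1 under the main scaling only, and Ckb and Ampd2 lie above 0 with spike-in scaling and without scaling.

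The other genes of phosphagen and adenylate metabolism were summarised in 6 lists, beside the 8.55% lower and 6.94% higher of all genes. These lists too were chosen with earlier results of these data known, so their counts are description only. Of 4 genes of creatine supply and the remaining creatine kinase, 1 passed 2-fold, downwards (median -0.44). That gene was Gamt, which completes creatine synthesis, with 557 in control and 97.0 in denervated muscle (-2.52 ± 0.20). The creatine transporter Slc6a8, the brightest of the list, stood at -0.83 ± 0.20, and Gatm, which starts creatine synthesis, at 0.05 ± 0.20.

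Of 8 other adenylate kinases, 5 were measured and none passed 2-fold (median -0.17, or 0.23 with spike-in scaling). Ak6, a nuclear enzyme, was the lowest at -0.78 ± 0.20, and Ak3 of the mitochondrial matrix, the brightest, stood at -0.69 ± 0.20. Ak1 was lower than both by more than 1 on the log2 scale, a description of these arrays with no test.

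Of 9 other AMPK subunits and upstream kinases, 1 passed 2-fold, downwards (median -0.46, or -0.06 with spike-in scaling). Prkag1, the widely expressed gamma1 subunit, was the lowest at -1.06 ± 0.20, and Prkab2, the beta2 subunit of muscle and the brightest of the list, stood at -0.94 ± 0.20. Prkab1, the beta1 subunit, was the highest at 0.28 ± 0.20. The alpha1 catalytic subunit gene Prkaa1 stood at -0.10 on its brighter probe and at 1.51 on the other, so its direction was not settled.

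Of 13 measured genes of the purine nucleotide cycle and IMP supply, 2 passed 2-fold upwards and 2 downwards (median -0.33, or 0.06 with spike-in scaling). Impdh1, which commits IMP to guanine nucleotides, read 194 in control and 696 in denervated muscle (1.84 ± 0.20). Gmpr, which returns GMP to IMP and was the brightest of the list, read 8270 and 2152 (-1.94 ± 0.20). The salvage enzyme gene Hprt was at 1.13 ± 0.20 and Adk, which phosphorylates adenosine to AMP, at -1.18 ± 0.20. Adsl, the lyase that completes the return of IMP to AMP, stood at -0.49 ± 0.20, a value given because the step follows Adssl1.

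Of 10 measured genes of AMP and IMP breakdown, 1 passed 2-fold, upwards (median 0.32). That gene was Nt5c2, a cytosolic nucleotidase that acts on IMP and GMP, at 1.25 ± 0.21 by its brightest probe and down to 0.02 by its other probes. Nt5m, a mitochondrial nucleotidase, was the lowest at -0.17 ± 0.20, and Nt5c3, the brightest, stood at -0.16 ± 0.20.

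Of 10 genes of adenine nucleotide exchange and phosphate transfer, 1 passed 2-fold, downwards (median -0.59). Nme3, a nucleoside diphosphate kinase gene, was the lowest at -1.50 ± 0.20 and Nme4, a mitochondrial member of that family, the highest at 0.93 ± 0.20. The brightest was the muscle ADP/ATP carrier gene Slc25a4, at -0.61 ± 0.20 with its other probe at -1.13. The voltage-dependent anion channels of the outer mitochondrial membrane, through which creatine kinase exchanges substrates, stood between -0.88 and -0.78 by the brightest probe. The channel gene Vdac1 stood at -0.95 on its other probe.

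The counts past 2-fold moved with the scaling. With spike-in scaling Prkag1 stood at -0.66 and Adk at -0.79, both inside 2-fold, while Impdh2 (1.05), Nt5c (1.21) and Nme4 (1.32) were past it upwards; Impdh2 and Nt5c are named for that reason.

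**Figure D4:**
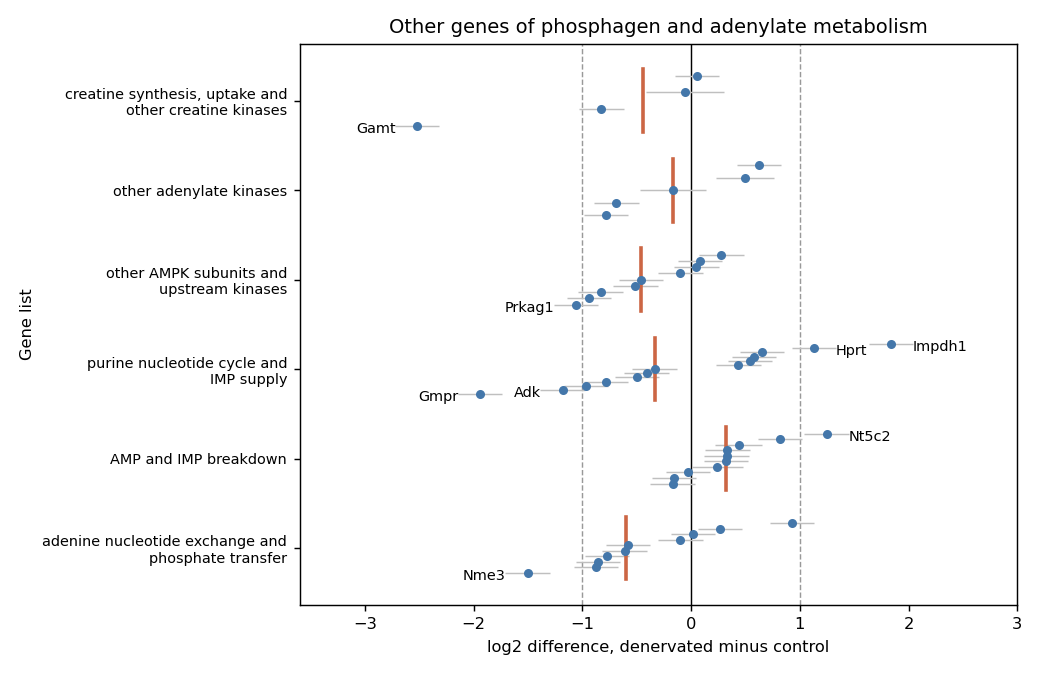
Log2 difference (denervated minus control, x axis) of the measured genes of 6 lists outside the set, with the technical error as grey bars, the list median as an orange line, and names given past 2-fold (dashed lines). The medians run from -0.59 to 0.32, and Gamt at -2.52 and Impdh1 at 1.84 are the outermost genes.

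Marker levels of the cells in whole muscle were set beside these values. Of all genes measured, 8.55% passed 2-fold downwards and 6.94% upwards, and 57.1% lay below 0. Sums of scaled signal add different probes, whose levels are not comparable, so each follows its brightest genes and measures no amount of cells. Of 11 skeletal muscle fibre markers all were measured and none passed 2-fold, with a median of -0.31 (0.09 with spike-in scaling) and a summed scaled signal of 416573 in control and 325225 in denervated muscle. Ckmt2, Ampd1 and Ak1 were lower than every one of these markers. By the brightest probe the lowest marker was Myh7, slow myosin, at -0.73 ± 0.20, and a second probe of Atp2a1 stood at -0.98. All 10 macrophage and myeloid markers were above 0, and 9 passed 2-fold by the brightest probe. Of these 9, Csf1r, Ptprc and Fcgr1 had another probe inside 2-fold, at 0.64, 0.74 and 0.77. The summed scaled signal of the 10 markers was 2014 in control and 6233 in denervated muscle. Their highest difference was 3.53 ± 0.21 for Cd68, against 3.96 ± 0.21 for Ampd3; the part of these cells in the Ampd3 value was not tested.

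Red blood cell markers, relevant because red cells carry the Ampd3 enzyme, were below 0 in all 4 measured genes, with a summed scaled signal of 4532 in control and 2970 in denervated muscle. All 7 endothelial markers (sum 3204 and 1914) and all 7 smooth muscle and pericyte markers (sum 41894 and 28416) were also below 0, except that Slc4a1 of the red cell list and Tek of the endothelial list lay above 0 with spike-in scaling. By the brightest probe, Schwann cell and nerve markers were divided, with 3 of 7 past 2-fold downwards and 1 upwards (median -0.04, sum 1307 and 752). With spike-in scaling 2 were past it downwards and 3 upwards (median 0.35). Ngfr, the marker past it upwards by the main scaling, stood at 2.47 and on its other probe at -0.16. Mbp, among those downwards, stood at -1.38, with another probe at 1.87. Fibroblast markers had a median of 0.08 (5 measured, sum 30678 and 27708), adipocyte markers -0.80 (5 measured, sum 341 and 213) and satellite cell markers -0.44 (3 measured, sum 486 and 823, Myf5 not well above background in either pool). The satellite cell sum rose through Cdh15 (418 and 776), while Pax7 and Vcam1 were below 0. Hba-a1 (4406 and 2883) made up most of the red cell sum, and Acta2 (38351 and 26321) most of the smooth muscle sum. The part of these cell types in the values of Ckb and Ampd2 was not tested.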

How the data were processed

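Pooled total RNA of gastrocnemius from 6 mice a group was labelled with Cy3 and hybridised, 1 pool an array, per the labels. Agilent Feature Extraction produced the deposited intensity values (version 9.5 in the submitters' processing notes, 9.5.3.1 per the file headers). The software subtracted the background and detrended each array on its own; it did not scale arrays to each other. The authors' second deposit is a table of whole numbers, here called a score. Each score was found to be the scanner intensity, rounded after a scaling that puts the 75th percentile of all spots at 100: the ratio between them varied by 0.198% (control) and 0.189% (denervated) over bright spots. The median score was 10 and 9.

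From these files, marked spots were left out (87 and 81), spots of a probe were averaged as log2, and each array was scaled to its 75th percentile (788 in the control pool, 1063 in the denervated pool). A probe was measured when well above background and not saturated on both arrays (70.9% and 68.4% of probes were well above background), and a gene took its brightest measured probe. Where a probe was above background in the denervated pool only, its ratio was taken against the larger of its control signal and the lowest detected signal. The scanner's error is 10% of the signal for bright spots, median 0.20 in log2 differences of genes; the log2 difference had a median SD of 0.06 between spots, over the 173 probes printed 8 or more times. The number of arrays limits the precision. A fold of 2 was the threshold, and no test was possible. Symbols came from a RefSeq table of GRCm38.p6 for 23374 of 41174 probes and otherwise from the files; probe positions are those of the files (mm8). Whether a probe lies in an exon or UTR was not analysed here, nor were protein sequences.

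Genes named were all 10 of the set and, of each pathway list, the highest, the lowest, the brightest and those past 2-fold; others are named with a reason. A gene of the adenylate kinase list that this rule would name is not reported here. The members and lists were chosen with earlier results of these data known. Alternatives were scaling, background (normexp, offset 50, limma 3.58.1 under R 4.3.3), the value table, the filter on dim probes, marked spots and the choice of probe. The script was tested on simulated data.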

Additional observations from a re-analysis of the deposited data

How the results depend on the processing

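No paired analysis was possible because each group is 1 array, and no replicate could be left out. Over 12 alternatives, 1 gene of the set stayed at least 2-fold higher and 3 to 4 at least 2-fold lower, and 8 of the 10 genes kept their sign under each; Ckb and Ampd2 kept theirs under 10 of 12. With spike-in scaling the differences were -1.71 (Ampd1), -1.71 (Ckmt2), -1.47 (Ak1), -0.65 (Prkaa2), -0.44 (Adssl1), -0.32 (Ckm), -0.28 (Prkag3), 0.041 (Ckb), 0.31 (Ampd2) and 4.35 (Ampd3), with a median of -0.38. Without scaling they were -1.68 (Ampd1), -1.67 (Ckmt2), -1.43 (Ak1), -0.62 (Prkaa2), -0.41 (Adssl1), -0.29 (Ckm), -0.25 (Prkag3), 0.075 (Ckb), 0.34 (Ampd2) and 4.39 (Ampd3), with a median of -0.35. Both settings add a constant to every gene by construction. Quantile scaling gave -1.82 for Ckmt2, -0.42 for Adssl1, -0.29 for Ckm and a median of -0.54, and loess centring gave -1.88 for Ckmt2, -0.55 for Adssl1 and -0.43 for Ckm. Normexp background correction gave 3.40 for Ampd3, and the cause of that shift was not tested. For Ckb, the mean of its 2 probes, which stood at -0.36 and -1.10, gave -0.73.

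Of all genes, 650 were at least 2-fold lower and 2261 higher with spike-in scaling, 608 and 2411 without scaling, and 2566 lower with no filter on dim probes, against 1339 lower and 1086 higher as reported. The higher ones were thus 77.7% and 79.9% of the genes past 2-fold under these scalings, against 44.8%. List medians with spike-in scaling and without scaling were -0.043 and -0.0082 for creatine supply, 0.23 and 0.27 for the other adenylate kinases, -0.064 and -0.029 for the other AMPK genes, 0.062 and 0.097 for the purine nucleotide cycle, 0.72 and 0.76 for AMP and IMP breakdown, and -0.20 and -0.16 for nucleotide exchange. With no filter on dim probes the other adenylate kinases had -0.43, and with the mean of a gene's probes nucleotide exchange had -0.81. Signal over background limits Ampd3 most, since its second probe was not above background in the control pool.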
